A study of Mus musculus with 14 samples.

Results

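The replication-dependent histone genes of the mouse, the Hist1, Hist2, Hist3 and Hist4 clusters, were followed on expression arrays of intestinal tissue and of a colon carcinoma cell line. They were taken by name, as all genes whose symbol in the scanner output begins with one of those cluster names, and 49 of 36161 names on the array met this rule. The study compared healthy intestine with tumours of the Apc Min/+ mouse, which carries a truncating Apc allele and forms adenomas, and with CT26 cells. Each of 14 samples was hybridized in 1 colour to 1 SurePrint G3 Mouse array. Healthy small intestine (3 arrays) and colon (3 arrays) came from C57BL/6J mice per the labels. Adenomas (3 arrays) and the tissue adjacent to them (2 arrays) carry the strain APCmin/+ in the labels, and by the study's sample list all of these pieces came from 1 mouse, so their spread is that between pieces of 1 animal. The same list places 1 colon sample under an Apc Min/+ mouse, against its label. CT26 (3 arrays) is a carcinoma line of BALB/c origin grown in culture, so strain, culture and the loss of all other cell types cannot be told apart from malignancy in any comparison with it. The wild type animals were adult, and no age is given here for the Apc Min/+ mouse. The labels do not say whether the 3 CT26 samples were separate cultures, so p-values measure the spread between these samples, which may be technical.

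Replication-dependent histone genes supply the histones that package newly made DNA, and their mRNAs accumulate in S phase. These mRNAs carry no poly(A) tail. They end a few bases after a conserved stem-loop that is bound by SLBP, the stem-loop binding protein, and they are cut by a complex that contains the U7 snRNP. Some of the genes also give longer, polyadenylated transcripts that run past the stem-loop, which have been described in differentiated and non-dividing cells. The RNA was labelled with a Low Input Quick Amp kit, which primes from an oligo(dT) primer. A histone signal therefore needs an A tail or internal priming, and the amount of a histone mRNA and the share of it that is polyadenylated cannot be told apart here. In tissue, fewer cells of a type and less RNA per cell cannot be told apart either.

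The 49 genes were read by 54 probes of 60 bases, 5 genes having 2 probes, and each gene was taken from its brightest probe. They comprised 6 genes of the linker histone H1, 14 of H2A, 12 of H2B, 8 of H3 and 9 of H4, with 36 on chromosome 13, 9 on chromosome 3, 3 on chromosome 11 and 1 on chromosome 6. The probe of 39 genes was well above background on all 14 arrays, that of 1 gene (Hist3h2bb-ps) on none, and none was saturated. The probes fall into 3 kinds by where they lie in the transcript. There were 27 in the coding part or leader, 7 that end at the stem-loop and 15 placed past it. Of the 7, 5 held the whole stem-loop, and those of Hist1h1t and Hist1h2ab only its first bases near the end of the probe. Of the 15, only that of Hist2h2aa1 held the stem-loop, and the others were placed by how far into the annotated transcript they begin. This grouping was chosen after the values had been seen and is used as a description only. The stem-loop itself, in capitals, shows what separates the kinds: in the first 3 probes it closes the probe, and in that of Hist2h2aa1 it opens it.
Hist2h2bb: cccaaaaGGCTCTTTTCAGAGCCacttta
Hist1h3i: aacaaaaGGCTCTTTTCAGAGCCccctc
Hist1h4m: aactaaaGGCCCTTTTCAGGGCCatccaa
Hist2h2aa1: taaaaaGGCTCTTTTCAGAGCCacccact
The last 30 bases of 3 probes that lie past the stem-loop are given next, because the results below turn on these genes. They lie in mm9 at chr13:23784254-23784313 (Hist1h2bc, plus strand), chr13:23832018-23832077 (Hist1h1c, plus strand) and chr11:58762964-58763023 (Hist3h2ba, plus strand), with a polyadenylation hexamer in capitals where one occurs.
Hist1h2bc: aatgcttttaagtgtttgtcatgtatggat
Hist1h1c: tagttgtagattaactttgttttgcctcag
Hist3h2ba: gttcataatggtattAATAAAtttggttca
Some coding probes of one family, mostly of H2A, read nearly the same letters. Those of Hist1h2af and Hist1h2ah differed at 3 of 54 shared positions. Of all 49 probes, coding or not, 15 shared a run of at least 20 bases with the probe of another histone gene. Among the 15, those of Hist1h3a, Hist1h3i, Hist2h2aa1 and Hist2h2bb shared runs of 20 to 22 bases, holding the stem-loop, across the H3, H2A and H2B families. A signal on such a probe may come from several genes, of its own family or of another. The array annotation itself listed up to 4 RefSeq genes for 1 probe. The 3 H4 probes below read 1 stretch of the H4 reading frame. Capitals mark the bases that differ from Hist1h4d in the stretch both read, which were 2 of 40 for Hist1h4j and 7 of 52 for Hist1h4c.
Hist1h4d: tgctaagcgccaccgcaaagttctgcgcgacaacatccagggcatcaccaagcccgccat
Hist1h4j: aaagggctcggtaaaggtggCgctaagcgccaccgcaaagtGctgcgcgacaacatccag
Hist1h4c: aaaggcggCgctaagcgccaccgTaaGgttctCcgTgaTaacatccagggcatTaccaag

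Levels are given as the log2 of the background-subtracted signal minus the 75th percentile of the array, so that 0 is a signal at that percentile. They are compared between samples and not between probes. A gene was called when its log2 fold change reached 1.2 in either direction and limma gave an adjusted p no higher than 0.01, adjusted over all probes tested. The share of probes well above background ran from 46.8% to 58.2% per array, and the 14 arrays lay on 2 slides (8 and 6 arrays).

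One array went against its label. In colon replicate 3 the median of 10 markers of small intestine enterocytes was 5.19, against -2.71 and -3.23 in the other colon arrays and 5.91 to 8.81 in small intestine, and the summed level of these 10 markers ran from 6.77 to 11.46 over the colon arrays. The median of 9 colonocyte markers was -4.61 there, against 3.67 and 3.92. Over all probes it correlated with the small intestine arrays at 0.960 to 0.966 and with the other colon arrays at 0.937 and 0.939, which correlated with each other at 0.979. The median of 7 B cell markers was 2.32 there and -0.62 and -0.16 in the other colon arrays. The counts of histone genes called in every comparison with colon are given with and without this array. Values of single genes and of the other gene lists include it unless stated otherwise.

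The histone genes stood apart on this array too. Of the 41 histone genes well above background on all the other 13 arrays, 7 lay at least 2 log2 units under the mean of the other colon arrays in colon replicate 3, as did 1.87% of the 16491 names that passed the same condition. Among them were 5 H4 genes read in the coding part. Hist1h4d read 5.37, 5.11 and 5.08 in small intestine, 5.31 and 4.82 in adjacent tissue, 5.17, 5.85 and 5.58 in adenomas, 5.33, 5.0 and 1.14 in colon and 6.53, 6.99 and 7.13 in CT26. Hist1h4j (-1.11 in colon replicate 3 and at least 0.91 on every other array), Hist1h4k (3.87 and at least 5.76), Hist2h4 (3.72 and at least 5.72) and Hist4h4 (0.35 and at least 2.97) had the same single low array. Hist1h4c, whose probe overlaps that of Hist1h4d, did not: it read 1.10, 0.52 and 0.79 in colon. The second probe of Hist1h4k also fell low on this array, at 0.32 against 3.16 and 2.86 in the other colon arrays. Of the other families, Hist1h3a (-5.86 against -2.21 and -2.45), not well above background on this array, and Hist2h2be (-3.20 against -1.0 and -0.67) were low there, whereas the H2A genes read in the coding part were not.

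**Figure D1:**
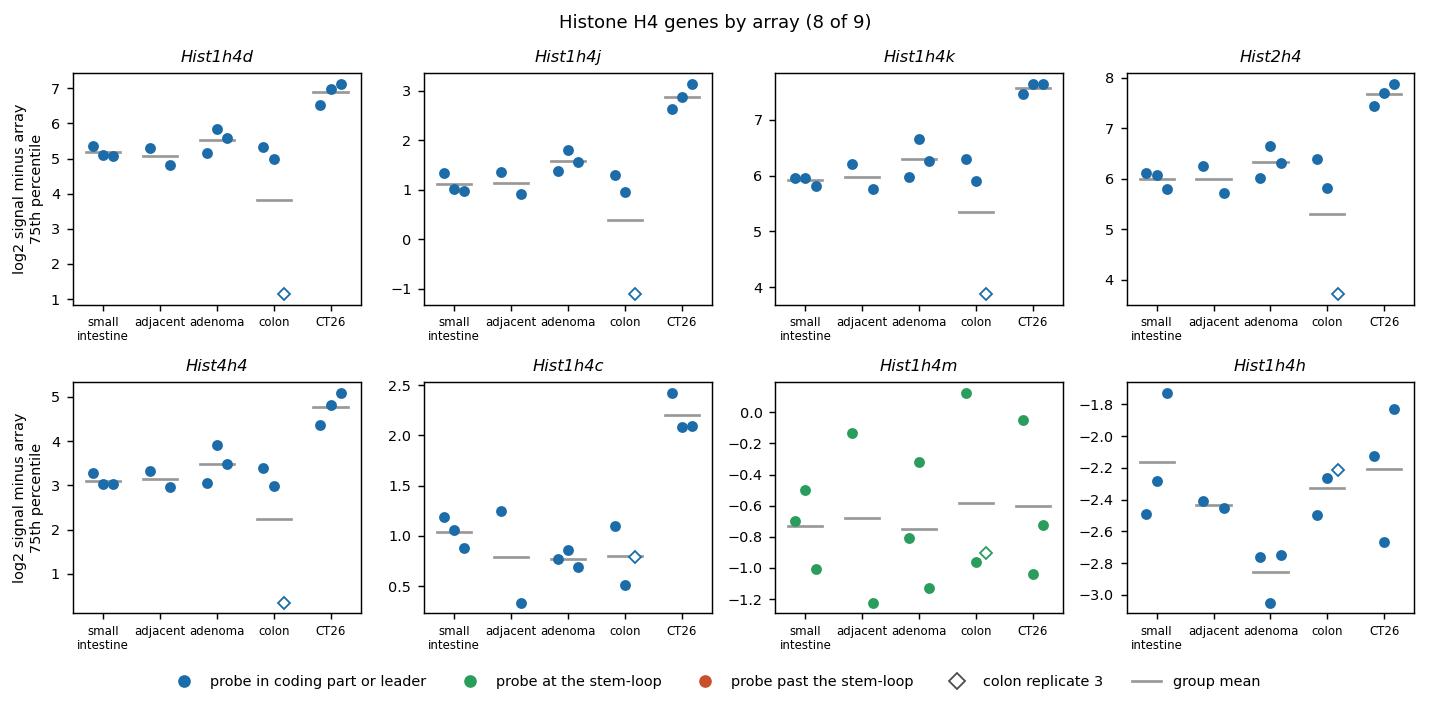
Level of 8 histone H4 genes on each array, as log2 signal minus the 75th percentile of the array (vertical axis), by group (horizontal axis). Points are arrays, grey lines group means, and the open diamond is colon replicate 3, which lies below every other array in Hist1h4d, Hist1h4j, Hist1h4k, Hist2h4 and Hist4h4 and within the others in Hist1h4c, Hist1h4m and Hist1h4h.

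Adenomas were compared with healthy small intestine. The former were pieces of 1 Apc Min/+ mouse by the study's sample list, and the latter came from healthy mice. Genotype and animal therefore cannot be told apart from tumour formation here. Of 46 histone genes tested, 1 was called higher and 6 lower in adenomas, beside 11.3% and 11.1% of all names called in these directions. The median log2 fold change was 0.40 over the histone genes and -0.15 over all names. Counted without a threshold, 30 of 46 were higher and 16 lower in adenomas, beside 9720 and 12374 of 22094 names. An unadjusted p under 0.05 was reached by 27 of 46, beside 13263 of those names. By the place of the probe, 4 of 13 genes past the stem-loop were called lower and 1 higher (median -0.63), 2 of 26 in the coding part or leader were called lower and none higher (median 0.47), and none of the 7 at the stem-loop was called (median 0.66).

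The call upward was Hist3h2ba, an H2B gene of the Hist3 cluster read past the stem-loop. It read -1.67, -1.85 and -2.14 in small intestine and 0.44, 0.64 and 0.51 in adenomas. The groups did not overlap, and adenomas lay wholly above in 17 of 46 histone genes and 27.8% of names. The log2 fold change was 2.42 (SE 0.18, adjusted p = 0.000152, 5.35-fold). It was 2.38 within the first slide and 2.5 within the second.

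Of the 6 genes called lower, 4 were read past the stem-loop, and 3 of these are given first. Hist2h2aa1 (H2A) read 4.91, 5.27 and 5.41 in small intestine and 2.91, 3.56 and 3.03 in adenomas, a log2 fold change of -2.03 (SE 0.24, adjusted p = 0.000725). Hist1h2bc (H2B) read 7.16, 6.93 and 7.06 in small intestine and 5.5, 5.41 and 5.4 in adenomas, so that each adenoma lay well under each healthy sample (-1.61, SE 0.15, adjusted p = 0.000331). Hist1h1c, which encodes the linker histone H1.2, read 4.59, 4.43 and 4.51 against 3.32, 3.39 and 3.15 (-1.23, SE 0.15, adjusted p = 0.00099). Being close to the threshold on fold, it was lost under 6 of 16 alternatives, among them the deposited table, quantile normalization and median scaling. In all 3 of these genes every adenoma was lower than every small intestine sample, as in 13 of 46 histone genes and 37.4% of names. A pair of H2B genes read in the coding part moved with Hist1h2bc. Hist1h2bm fell by 1.54 (SE 0.16, adjusted p = 0.00046) and Hist1h2ba, the testis H2B gene, fell by 1.38 (SE 0.16, adjusted p = 0.000684) on the log2 scale, and neither was called with the deposited table or quantile normalization. Hist1h2ba read 4.60, 4.5 and 4.52 in small intestine, and whether its probe picks up other H2B mRNAs was not tested.

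Hist1h4i had the largest fall, with 4.40, 3.01 and 3.48 in small intestine and 1.2, 1.26 and 0.99 in adenomas (-2.48, SE 0.34, adjusted p = 0.00142), a call that was lost with all 5 groups in 1 fit. Its brightest probe (mm9 chr13:22132679-22132738, minus strand) begins tttgcttcccgagtgttgggattaaaggcg, which resembles the reverse complement of the B1 repeat, a short element spread over the mouse genome, so the source of this signal is uncertain. The other probe of Hist1h4i, in the coding part or leader, read 0.17, 0.40 and 0.08 in small intestine and 0.61, 0.65 and 0.64 in adenomas.

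The genes not called kept mostly to small shifts upward. The H2A genes read in the coding part moved alike, from 0.38 for Hist1h2aa to 0.74 for Hist1h2an. Hist1h2ah, named as the brightest H2A probe, read 8.37, 8.36 and 7.88 in small intestine and 8.67, 9.07 and 8.59 in adenomas (0.57, adjusted p = 0.0626). Among H3 genes, Hist1h3g read -1.37, -1.99 and -2.59 against -1.01, -0.57 and -0.61, a difference of 1.25 that missed the threshold on p (adjusted p = 0.0157), and Hist1h3d, named as the brightest H3 probe, differed by 0.50 (adjusted p = 0.0301). Of the other genes known for polyadenylated transcripts, Hist2h2be was at -0.63 (adjusted p = 0.0351), Hist1h4h at -0.69 (0.043), Hist3h2a at 0.41 (0.152) and Hist4h4 at 0.37 (0.231) as log2 fold changes with adjusted p in brackets. The Hist1h4h and Hist4h4 probes lie in the coding part or leader and do not read the part past the stem-loop. The other Hist4h4 probe, past the stem-loop, was well above background on no array. The testis genes Hist1h1t (-1.04, adjusted p = 0.0119) and Hist1h2aa (0.38, adjusted p = 0.202) were not called.

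The tissue adjacent to the adenomas was set against both the adenomas and healthy small intestine. No histone gene was called by limma between adenomas and adjacent tissue, beside 2.4% of names called higher and 1.78% called lower, with 9 of 46 histone genes at an unadjusted p under 0.05. No histone gene was called between adjacent tissue and small intestine either, where the array as a whole gave almost no calls (0.00924% higher and 0% lower). There too 9 of 46 had an unadjusted p under 0.05, beside 6628 of 21641 names. In each of the 6 genes called lower in adenomas, both adjacent samples lay below every small intestine sample. The same order was found in 10 of 46 histone genes and 6710 of 21641 names. The genes called were picked by the difference of adenomas from these same small intestine arrays. The adjacent pieces came from the mouse with the adenomas by the study's sample list. Whether adjacent tissue shares the change of the adenomas was therefore not tested independently. Hist1h2bc read 6.02 and 5.39 in adjacent tissue, Hist1h1c 3.54 and 2.85, and Hist2h2aa1 3.73 and 3.64. Their log2 differences from small intestine were -1.34 (adjusted p = 0.0583), -1.31 (0.0604) and -1.51 (0.0491). Their differences between adenomas and adjacent tissue were -0.27 (adjusted p = 0.413), 0.09 (0.808) and -0.52 (0.164). Hist1h2bm (-1.38 from small intestine, adjusted p = 0.0548) and Hist1h2ba (-1.2, adjusted p = 0.0559) had differences of like size. Hist1h4i read 2.93 and 1.47 in adjacent tissue, above every adenoma, and the higher of these was close to the lowest small intestine sample at 3.01 (-1.43 from small intestine, adjusted p = 0.158). Hist3h2ba read -0.24 and -0.62 in adjacent tissue, above every small intestine sample and below every adenoma, and Hist2h2be had the largest difference between adenomas and adjacent tissue, with -0.97 and -0.74 in adjacent tissue and -1.84, -2.10 and -1.80 in adenomas (-1.06, SE 0.18, adjusted p = 0.016).

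Colon and small intestine gave no histone call by limma, beside 0.00484% of names in each direction. At an unadjusted p under 0.05 were 5 of 44 histone genes, beside 4924 of 20645 names. Without colon replicate 3, 1 of 47 histone genes was called higher and 1 lower in colon, beside 3.34% and 3.9% of names. The former was Hist3h2ba (1.67, SE 0.27, adjusted p = 0.00999), at 0.003 and -0.43 in these colon arrays and at -1.56 in colon replicate 3. The latter was Hist1h4i (-3.06, SE 0.47, adjusted p = 0.00923), with 0.99 and 0.16 in these colon arrays and 4.61 in colon replicate 3, the level of small intestine, again on the probe that resembles a repeat.

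CT26 cells were compared with colon, the tissue the line came from. Of 44 histone genes tested, 6 were called higher and 6 lower in CT26, beside 21% and 16.2% of all names. Neither share of members (6 of 44) stood above that background. Signals in CT26 ran higher as a whole under this scaling, with a median log2 fold change of 0.32 over all names and 0.49 over the histone genes, and changes are best read against that shift. The calls are described next by the place of the probe. Among 11 genes read past the stem-loop, 5 were called lower and none higher, with a median of -1.47. In the coding part or leader, 5 of 26 were called higher, a share no larger than that of all names, and 1 lower, with a median of 0.72. Of the 7 read at the stem-loop, 1 was called higher and none lower, with a median of 1.5. These medians kept their signs under the other scalings tried: with array medians, which put the median probe at 1.03, they were -0.81, 1.38 and 2.16, and with quantile normalization -1.58, 0.70 and 1.38. Leaving out CT26 replicate 2 or CT26 replicate 3 left no gene called higher, and leaving out colon replicate 2 left 1, while the 6 genes called lower passed without any 1 array. Without colon replicate 3 the counts were 5 of 14 lower and none higher past the stem-loop, 11 of 26 higher and 1 lower in the coding part or leader, and 1 of 7 higher at the stem-loop, beside 20.1% of names higher and 19.4% lower.

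**Figure D2:**
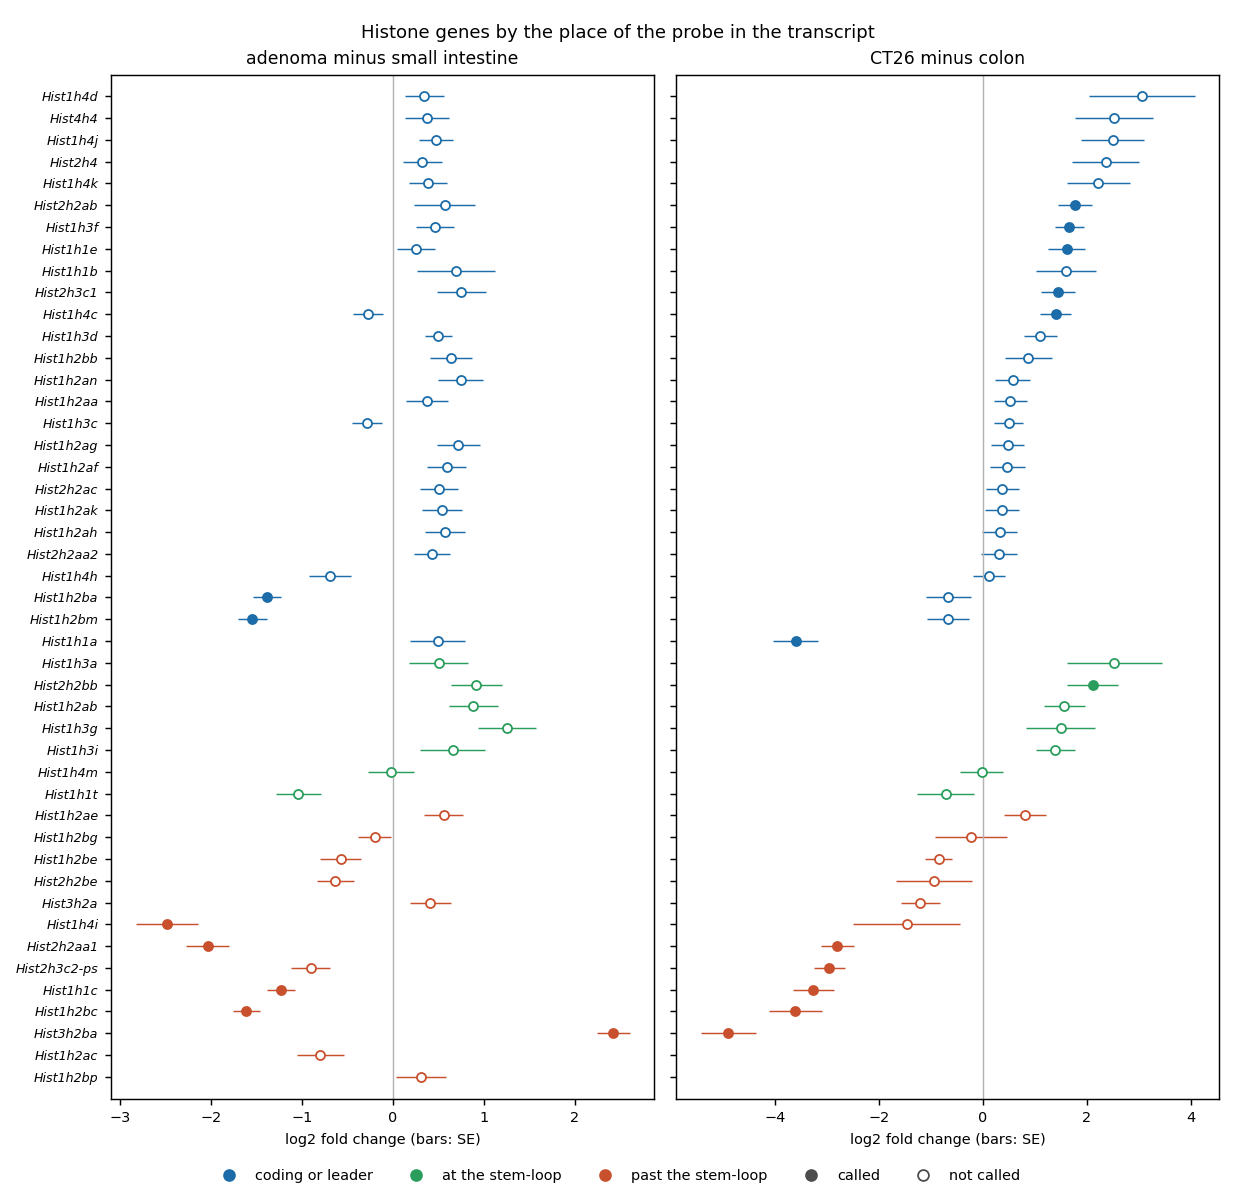
Log2 fold change of each histone gene tested (points, with bars of 1 SE) in adenoma minus small intestine (left) and CT26 minus colon (right), grouped by where the probe lies in the transcript and ordered by the right panel. Filled points are called. On the right, the genes read past the stem-loop (bottom group) have a median of -1.47 and those in the coding part or leader (top group) 0.72.

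The genes called lower in CT26 were lower by large margins. Hist3h2ba read 0.003, -0.43 and -1.56 in colon and -5.83, -4.69 and -6.17 in CT26, where 1 of 3 arrays was well above background (-4.90, SE 0.53, adjusted p = 0.000228). The size of this difference therefore rests on signals near the background, and it was -2.80 with normexp and -2.32 with the deposited table. Hist1h2bc read 6.37, 6.36 and 5.21 in colon and 1.58, 3.17 and 2.35 in CT26 (-3.61, SE 0.50, adjusted p = 0.000769, 12.2-fold). Hist1h1c read 4.65, 4.31 and 4.90 against 0.70, 1.99 and 1.37 (-3.27, SE 0.39, adjusted p = 0.000368). No CT26 array reached the lowest colon array in any of these genes, as in 8 of 44 histone genes and 24.0% of names. Hist2h3c2-ps is marked as an H3 pseudogene by its array symbol only, and its probe was matched to the RefSeq gene H3c15. It read 0.99, 0.68 and 0.43 against -2.48, -2.02 and -2.28 (-2.96, adjusted p = 0.000152), and Hist2h2aa1 read 4.62, 3.71 and 4.26 against 1.47, 1.38 and 1.32 (-2.81, adjusted p = 0.000291). Hist1h1a, which encodes the linker histone H1.1, was the exception among the genes called lower, since its probe lies in the coding part. It read 0.20, -0.82 and 0.69 in colon and -3.95, -3.46 and -3.35 in CT26 (-3.61, SE 0.43, adjusted p = 0.000371), with a probe at mm9 chr13:23855888-23855947 (plus strand) that shared no run of 20 bases with that of another histone gene.
Hist1h1a: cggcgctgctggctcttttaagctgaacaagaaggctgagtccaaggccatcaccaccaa
Hist1h1e: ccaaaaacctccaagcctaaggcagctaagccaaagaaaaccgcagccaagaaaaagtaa
Its relative Hist1h1e (H1.4), shown beside it in lower case as another H1 coding probe with the opposite change, read 4.74, 4.35 and 5.27 in colon and 6.31, 6.08 and 6.80 in CT26 (1.61, SE 0.35, adjusted p = 0.00659). Hist1h1b (H1.5), the third H1 gene read in the coding part, was at 1.60 (adjusted p = 0.0495).

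The genes called higher came from every family. Hist2h2bb, the H2B gene whose probe closes on the stem-loop printed above, read 1.96, 1.26 and 2.97 in colon and 3.70, 4.67 and 4.16 in CT26 (2.11, SE 0.49, adjusted p = 0.00819). Hist2h2ab (H2A) read -2.32, -3.05 and -2.50 against -1.18, -0.86 and -0.53 (1.77, SE 0.33, adjusted p = 0.0031). Hist1h3f (H3) read -1.5, -1.79 and -1.94 against -0.18, 0.05 and -0.11 (1.67, SE 0.28, adjusted p = 0.00177). Groups did not overlap in any of the 3, and CT26 lay wholly above colon in 16 of 44 histone genes and 39.4% of names. Hist2h3c1 (H3, 1.45) and Hist1h4c (H4, 1.40) were also called. The H4 genes that were low on colon replicate 3 had larger differences and larger errors, from 2.23 for Hist1h4k (SE 0.60, adjusted p = 0.0165) to 3.06 for Hist1h4d (SE 1.02, adjusted p = 0.037), and none was called. Without that array they were all called, with 1.72 for Hist1h4d (SE 0.32, adjusted p = 0.00318), 1.75 for Hist1h4j, 1.48 for Hist1h4k, 1.57 for Hist2h4 and 1.57 for Hist4h4, and Hist1h3d was called as well (1.29). The H2A genes with shared coding sequence, by contrast, lay near the shift of the whole array, from 0.31 for Hist2h2aa2 to 0.57 for Hist1h2an. Their groups overlapped when all colon arrays were kept. Without colon replicate 3 these differences ran from 0.48 for Hist2h2aa2 to 0.75 for Hist1h2an, and none was called. With slide as a block, 11 genes were called, and Hist1h1e (adjusted p = 0.0176) and Hist1h4c (adjusted p = 0.0147) passed no longer. Within slides, Hist1h2bc differed by -4.39 and -2.62 and Hist1h1e by 2.21 and 1.08.

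**Figure D3:**
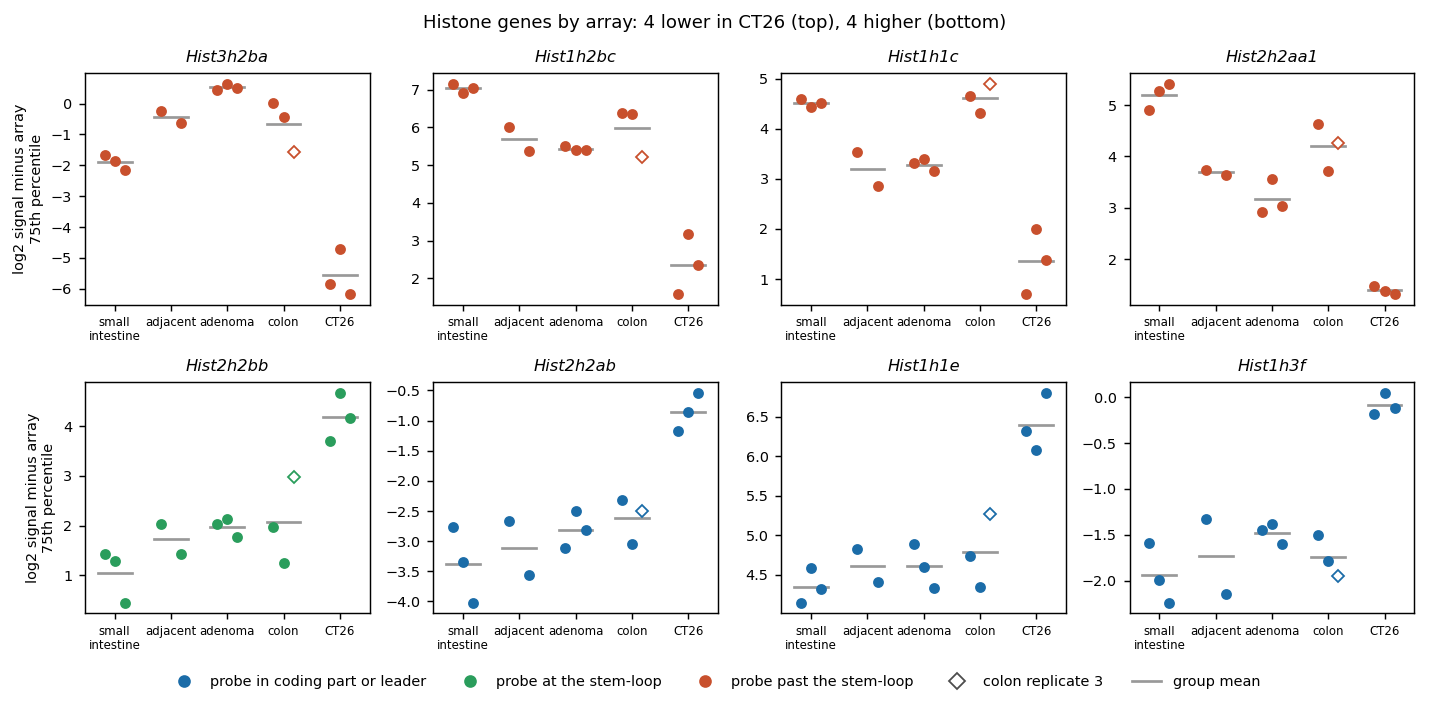
Level of 8 histone genes on each array, as log2 signal minus the 75th percentile of the array (vertical axis), by group (horizontal axis), with colour for the place of the probe. Points are arrays, grey lines group means and the open diamond colon replicate 3. The 4 genes on top, read past the stem-loop, are lowest in CT26 (Hist1h2bc at 1.58 to 3.17) and the 4 below highest in CT26 (Hist2h2bb at 3.70 to 4.67).

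Against adenomas, CT26 showed 13 of 46 histone genes called higher and 7 lower, beside 21.9% and 20% of names. This comparison shares its CT26 arrays with the one against colon, so its values stand beside those and do not repeat them independently. By place, 6 of 13 genes read past the stem-loop were called lower and none higher, while 10 of 26 in the coding part or leader and 3 of 7 at the stem-loop were called higher, Hist1h1a being again the only one of these called lower. Without adenoma replicate 1 the calls were 5 higher and 6 lower, and without adenoma replicate 3 they were 7 and 6. Of the H4 genes, 6 of 9 were called higher. Hist1h4d read 5.17, 5.85 and 5.58 in adenomas and 6.53, 6.99 and 7.13 in CT26 (1.35, SE 0.26, adjusted p = 0.00265). Hist1h4c differed by 1.43 (adjusted p = 0.000429), Hist2h4 by 1.35 and Hist4h4 by 1.28 (SE 0.29, adjusted p = 0.00621). The largest differences upward were those of Hist2h2bb (2.20, SE 0.28, adjusted p = 0.000287), Hist2h2ab (1.96, adjusted p = 0.000323) and Hist1h1e (1.79, adjusted p = 0.000606). Downward, Hist3h2ba differed by -6.10 (SE 0.37, adjusted p = 4.15e-06), with 1 of 3 CT26 arrays well above background and a size of -3.39 with the deposited table. Hist1h1a differed by -3.99 (adjusted p = 1.75e-05), Hist1h2bc by -3.07 (adjusted p = 0.000233), Hist2h3c2-ps by -2.40 and Hist1h1c by -1.93. Hist3h2a, an H2A gene of the Hist3 cluster, was called lower here, with 2.48, 2.34 and 2.28 in adenomas and 1.64, 0.86 and 0.82 in CT26 (-1.26, SE 0.26, adjusted p = 0.00389). Hist1h4h was not called in any comparison, with -2.13, -2.67 and -1.83 in CT26 and -2.76, -3.05 and -2.75 in adenomas (0.65, adjusted p = 0.0609).

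Because adenoma minus small intestine and CT26 minus colon share no array, the difference between both effects could be tested. It was called positive, meaning a higher change in adenomas, for 4 of 46 histone genes and negative for 2, beside 15.3% and 15.5% of names. Hist3h2ba, called higher in adenomas and lower in CT26, had a difference of 7.32 (SE 0.61, adjusted p = 3.37e-06), or 4.35 with the deposited table, its CT26 signal being well above background on 1 of 3 arrays. Hist1h1a (4.10, adjusted p = 0.000159), Hist2h3c2-ps (2.05, adjusted p = 0.000712) and Hist1h1c (2.04, adjusted p = 0.00262) had the lower change in CT26. In adenomas Hist1h1a (0.49) and Hist2h3c2-ps (-0.90) were not called. Hist1h4c (-1.67, adjusted p = 0.00113) and Hist1h3f (-1.2, adjusted p = 0.00992) had the larger change upward in CT26. Hist1h2bc, called lower in both comparisons, did not pass for the difference (2.0, adjusted p = 0.0134), nor did Hist3h2a (1.62, adjusted p = 0.0121). Without colon replicate 3, 6 of 47 were called positive and 5 negative, and Hist1h2bc (2.39, adjusted p = 0.00235) and Hist3h2a (1.88, adjusted p = 0.00342) were among the former while Hist1h3f was not called (-1.10, adjusted p = 0.0148).

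The genes that act with the histones were read from lists, and their comparisons with colon include colon replicate 3. S phase genes, such as the MCM helicase subunits and ribonucleotide reductase, rose in both tumour comparisons: 14 of 18 were called higher in adenomas than in small intestine and 14 of 18 in CT26 than in colon, none lower, beside 11.3% and 21% of all names called higher. Mcm3 was 2.59 (SE 0.35, adjusted p = 0.0013) and Rrm2 2.38 (SE 0.24, adjusted p = 0.000415) higher in adenomas on the log2 scale, and Pola1 was 3.06 higher in CT26 (SE 0.31, adjusted p = 0.000148). Of 8 genes of cell division, 7 and 6 were called higher. Between adenomas and adjacent tissue 4 of 18 S phase genes were called higher, beside 2.4% of names. The histone genes read in the coding part or leader had none called higher in adenomas on the same arrays.

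Genes for histone gene transcription and for the processing of the mRNA 3′ end were read in the same way. None of 15 was called by limma in adenomas against small intestine, beside 11.3% of names called higher, and their median was 0.38. At an unadjusted p under 0.05 were 7 of 15, beside 13263 of 22094 names. In CT26 against colon 9 of 15 were called higher, beside 21% of names. Slbp differed by -0.07 (SE 0.18, adjusted p = 0.768) in adenomas and by 1.71 (SE 0.38, adjusted p = 0.00723) in CT26. Hinfp, a transcription factor of H4 genes, differed by 1.94 (adjusted p = 0.000796) in CT26, Casp8ap2, which acts in histone gene expression, by 1.87 (adjusted p = 0.00129), Lsm11, of the U7 snRNP, by 1.91 (adjusted p = 0.00323) and Eri1, an exonuclease that trims the histone mRNA end, by 2.19 (adjusted p = 0.000523). The difference between the effects was called for 5 of 15 of these genes, all with the higher change in CT26, beside 15.5% of names, Slbp among them (-1.78, SE 0.43, adjusted p = 0.00595). Of 9 histone chaperones, 3 were called higher in adenomas, among them Chaf1b of the CAF-1 complex (2.12, adjusted p = 0.00205), beside 11.3% of names, and 6 in CT26, beside 21% of names, led by the acetyltransferase Hat1 (3.26, adjusted p = 0.000621) and Asf1b (3.07, adjusted p = 0.000157).

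**Figure D4:**
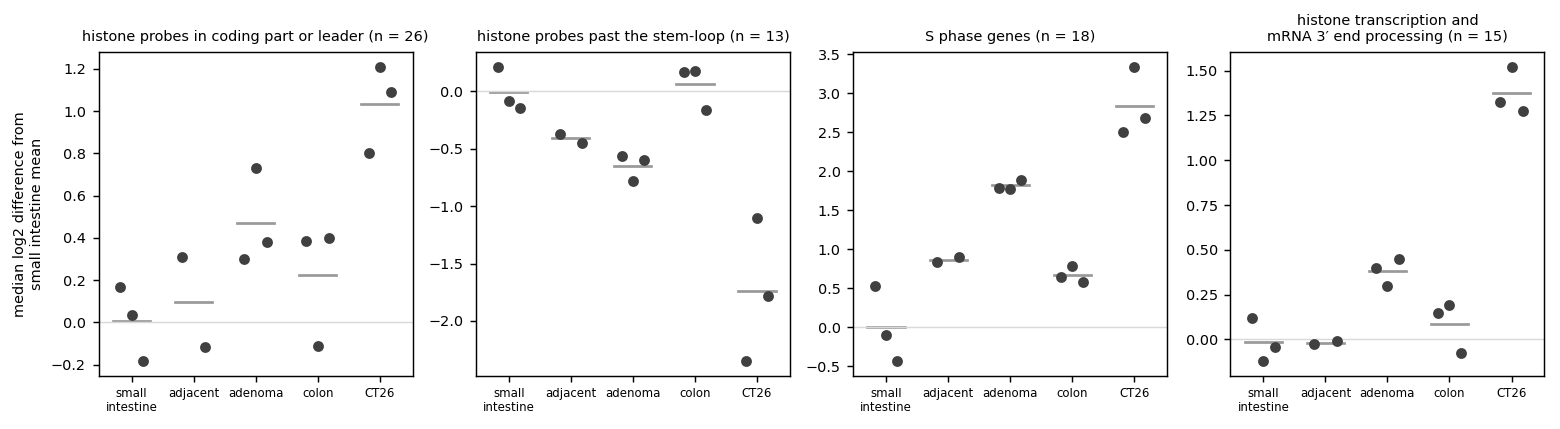
Median, over the genes of a set, of the log2 difference of an array from the small intestine mean of each gene (vertical axis), by group (horizontal axis). Points are arrays and grey lines group means. The adenoma arrays lie at 1.78 to 1.89 for S phase genes and at 0.30 to 0.73 for histone probes in the coding part or leader, and the CT26 arrays lie at -2.35 to -1.10 for probes past the stem-loop.

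Replacement variants, whose genes are outside the clusters, were read as well. Most of them, but not all, have polyadenylated mRNAs and are made outside S phase too. Of 11, 2 were called higher in adenomas, beside 11.3% of names, H1fx (1.90, adjusted p = 0.000436) and the centromeric H3 variant Cenpa (1.39, adjusted p = 0.00904), and 2 in CT26 against colon, beside 21% of names, Cenpa (2.86, adjusted p = 0.000228) and H2afz (1.60, adjusted p = 0.00338). None was called lower in these comparisons. Cell makeup moved with the groups as well. In CT26, the medians of 8 epithelial markers (-5.72 to -5.14) and 6 smooth muscle markers (-4.96 to -4.60) lay far under those of colon (6.70 to 8.34 and 6.62 to 7.06), with 4 of 8 and 3 of 6 not well above background on any CT26 array. The summed level of the epithelial list was 10.38 to 11.51 in colon and 0.98 to 2.80 in CT26, and 3 of the 8 were well above background on all CT26 arrays. In adenomas the median of the enterocyte markers was 4.75 to 5.65, against 5.91 to 8.81 in small intestine, and their summed level 8.61 to 9.34 against 11.07 to 12.15. Called lower in adenomas than in small intestine were 6 of 10 enterocyte, 4 of 8 epithelial, 3 of 6 T cell and 1 of 6 smooth muscle markers, with median log2 fold changes of -2.71, -1.13, -1.94 and -1.42, and none of these was called higher, beside 11.1% of names called lower. Of 6 colonocyte markers tested 3 were called lower and 2 higher, and of 3 B cell markers none. The part of these shifts in the histone results was not tested.

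The promoters of the histone genes differ by family in letters that are known to matter for their transcription. RefSeq promoter sequence of GRCm38.p6, 250 bases before to 50 after the start, was matched for 43 of the 49 genes. On either strand, CCAAT occurred in 37 of 43 (86.0%) against 41.1% of all 27025 genes, TATAAA in 26 (60.5%) against 15.7%, and the octamer ATTTGCAT in 13 (30.2%) against 1.97%. All of the H1, H2A, H2B and H3 promoters held CCAAT, and 2 of 8 H4 promoters did. The octamer was found in 7 of 14 H2A and 6 of 9 H2B promoters and in none of H1, H3 or H4, and some H2A and H2B genes lie head to head, so that their windows may overlap. These shares did not part the genes by the place of their probe: CCAAT was in 20 of 24 genes read in the coding part or leader and in 12 of 13 read past the stem-loop, TATAAA in 15 and 8, and the octamer in 6 and 5. The 250 bases before the start are shown for the H2B genes with the largest change upward and downward in CT26, Hist2h2bb at chr3:96269450-96269699 and Hist3h2ba at chr11:58948661-58948910 (both plus strand, GRCm38.p6), with matches to the 3 motifs on either strand in capitals.
Hist2h2bb: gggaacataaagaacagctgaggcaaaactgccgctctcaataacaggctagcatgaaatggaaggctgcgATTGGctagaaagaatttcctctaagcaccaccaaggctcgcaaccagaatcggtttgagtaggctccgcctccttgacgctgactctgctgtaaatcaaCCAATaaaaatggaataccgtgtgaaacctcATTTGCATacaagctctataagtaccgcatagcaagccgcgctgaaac
Hist3h2ba: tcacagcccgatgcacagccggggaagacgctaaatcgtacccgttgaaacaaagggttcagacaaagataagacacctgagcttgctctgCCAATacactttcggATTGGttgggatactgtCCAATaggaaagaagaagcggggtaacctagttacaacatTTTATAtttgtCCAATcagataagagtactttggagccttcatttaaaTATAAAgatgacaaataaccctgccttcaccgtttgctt
Hist2h2bb held 2 CCAAT matches and 1 octamer in this window, and Hist3h2ba 4 CCAAT and 2 TATAAA matches and no octamer. Such matches are letters in a window and no measure of binding, and those of TATAAA on both strands may overlap each other.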

How the data were processed

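Scanner output of 14 one-colour Agilent arrays was deposited by the authors as intensity values (processed signal of Feature Extraction 10.7.3.1, background subtracted, not normalized between arrays). The authors also deposited a table of normalized log2 values, whose method is not given in the sources used here. It served as an alternative, and each of the 14 arrays matched its own column best (lowest correlation 0.955). That table's further sample columns (28 in all) and its columns of fold changes and p-values between groups were not used.

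Control and outlier spots (103 to 206 per array) were left out, the log2 was taken, each array's 75th percentile was taken off, and spots of 1 probe were averaged over 55681 probes. Each comparison was fitted on its own arrays with limma 3.58.1 in R 4.3.3, over probes that stood well above background throughout 1 or more of its groups, with Benjamini-Hochberg adjustment. In simulated data with 200 probes changed by 4 on the log2 scale, it recovered 90% (adenoma and small intestine), 82.5% (adenoma and adjacent), 68.5% (adjacent and small intestine), 68% (colon and small intestine), 69% (CT26 and colon) and 86.5% (CT26 and adenoma).

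Signal over background and the number of arrays limit the precision. Probes were placed past the stem-loop when it lay in the probe with more than 10 bases after it, or when the probe began at or beyond base 750 (H1), 500 (H2A, H2B and H3) or 450 (H4) of the transcript, and at the stem-loop when it ended the probe in whole or in part. The genes named were those with the largest called changes, the brightest of each family and a list of known polyadenylated and testis members. The members, lists and tests were chosen with earlier results of these data known. Alternatives were median scaling, normexp (offset 50), quantile normalization, the deposited table, other filters, all 5 groups in 1 fit, an intensity trend, a block for slide or for replicate number, an adjusted p of 0.05 without a fold, any probe of a gene, and leaving out each array.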

Additional observations from a re-analysis of the deposited data

Results flagged for a closer look

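For 6 histone genes the change in adenomas against small intestine differed from that in CT26 against colon by the test of the difference itself. These differences of log2 fold changes were 7.32 for Hist3h2ba (4.35 with the deposited table, its probe being well above background on 1 of 3 CT26 arrays), 4.10 for Hist1h1a, 2.05 for Hist2h3c2-ps and 2.04 for Hist1h1c, all with the lower change in CT26, and -1.67 for Hist1h4c and -1.2 for Hist1h3f, with the higher change in CT26. Genotype, animal, strain, culture and cell makeup differ between the groups together with the tumour, and these cannot be told apart. Hist1h3f passed narrowly and was lost under 17 of its 21 alternatives, Hist1h1c under 1 of 21, and the other 4 under none.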

How the results depend on the processing

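No log2 fold change of a called histone gene changed sign under any alternative run. Of 747 values under alternatives, 616 stayed called and 131 did not. Between adenomas and small intestine 7 genes were called, 4 with the deposited table, 4 with quantile normalization, 18 at an adjusted p of at most 0.05 without a fold, and 6 to 8 when 1 array was left out. Between CT26 and colon 12 were called, 21 with all 5 groups in 1 fit, 20 with median scaling, 24 at an adjusted p of at most 0.05, and 6 to 18 with 1 array left out. The lowest counts there were 6 without CT26 replicate 2, 6 without CT26 replicate 3 and 7 without colon replicate 2, and the highest was 18 without colon replicate 3. The 6 genes called lower there passed in each of these fits with 1 array left out. Between CT26 and adenomas 20 were called, 11 with the deposited table, 13 with quantile normalization and 11 to 21 with 1 array left out, with 11 without adenoma replicate 1 and 13 without adenoma replicate 3. For the difference of effects 6 were called, 12 at an adjusted p of at most 0.05 and 5 to 11 with 1 array left out, 11 being the count without colon replicate 3. At an adjusted p of at most 0.05 without a fold, 2 were called between adenomas and adjacent tissue and 1 between adjacent tissue and small intestine. With 1 array left out, 0 to 1, 0 and 0 to 2 were called between adenomas and adjacent tissue, adjacent tissue and small intestine, and colon and small intestine. Fits that left an arm with 1 array assumed that it varies like the other group. The cause of these differences was not tested.

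The replicate numbers were taken as names of samples and not as pairs. The titles of the adjacent samples carry other numbers than their replicate labels. Whether adenoma and adjacent pieces pair by title was therefore not tested. Deviations from the group means of arrays with the same number had correlations from -0.166 to 0.172. With the replicate block 7 genes were called between adenomas and small intestine, 8 between CT26 and colon, 19 between CT26 and adenomas, 6 for the difference of effects and 0 in the other comparisons. Signal over background limits what is said of the members that did not pass the filter, Hist1h1d, Hist1h2bq and Hist3h2bb-ps in every comparison, with Hist1h2bp and Hist1h2bb or Hist1h2ac in those with colon.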
